A study of Homo sapiens with 8 samples.

Results

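Small nucleolar RNAs and small Cajal body RNAs were examined here in nascent RNA from human fibroblasts. The members were the gene-table entries whose symbol starts with SNORA, SNORD or SCARNA and a digit, and whose raw counts summed over the 8 libraries reached 80. They were 56 of 552 such entries, in a table of 27945 genes, and were 35 SNORA, 10 SNORD and 11 SCARNA genes. The cells were IMR90, primary human lung fibroblasts that carry a fusion of the estrogen receptor and oncogenic RAS, which 4-OHT switches on to induce senescence. The 4 groups of 2 libraries each were control cells (genotype WT, treatment control), senescent cells with shcontrol (shControl), senescent cells with shMETTL3 and senescent cells with shMETTL14. The knockdowns act on METTL3 and METTL14, the catalytic and the RNA-binding partner of the N6-methyladenosine writer. The labels give the control cells no shRNA, so that senescence and shRNA infection cannot be told apart in the comparison with them. The study describes its fastGRO-seq experiments as biologically independent, while the labels do not say whether the 2 libraries of a group came from separate cultures, and the p-values measure the spread between these libraries.

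Box C/D small nucleolar RNAs (SNORD) guide 2′-O-methylation, and box H/ACA small nucleolar RNAs (SNORA) guide pseudouridylation, mostly of ribosomal RNA. Small Cajal body RNAs (SCARNA) carry either or both kinds of box and guide the same modifications on spliceosomal RNAs. In human cells most of them are cut out of introns of host genes and trimmed to their ends, where bound proteins stop the exonucleases. The assay was fastGRO-seq, a nuclear run-on in which RNA polymerases extend their transcripts with 4-thio-UTP and the labelled RNA is captured and sequenced.

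Sequences are shown for 5 members on which the results turn. SNORA73B had the highest count, SNORA63 and SNORD33 differed widely between the libraries of the shMETTL3 group, SNORA22 had the largest fold with METTL14 knockdown, and SNORD97 is long for a box C/D RNA. They were read from the GRCh37 genome, the assembly that hg19 copies, at the positions in the table, 5′ to 3′ on the gene's strand. Capitals mark ACA within the last 10 bases of a SNORA, and TGATGA within the first 15 and CTGA within the last 10 bases of a SNORD.
SNORA73B: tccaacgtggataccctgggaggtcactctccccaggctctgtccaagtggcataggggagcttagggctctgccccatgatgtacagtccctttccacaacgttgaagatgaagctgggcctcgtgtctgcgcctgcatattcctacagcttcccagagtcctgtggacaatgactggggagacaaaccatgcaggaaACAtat
SNORA63: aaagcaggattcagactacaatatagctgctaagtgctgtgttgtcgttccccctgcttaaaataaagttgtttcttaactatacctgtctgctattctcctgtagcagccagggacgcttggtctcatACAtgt
SNORA22: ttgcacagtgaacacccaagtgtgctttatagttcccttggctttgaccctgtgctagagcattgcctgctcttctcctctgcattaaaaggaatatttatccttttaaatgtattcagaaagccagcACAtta
SNORD33: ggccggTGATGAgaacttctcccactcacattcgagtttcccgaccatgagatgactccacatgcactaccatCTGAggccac
SNORD97: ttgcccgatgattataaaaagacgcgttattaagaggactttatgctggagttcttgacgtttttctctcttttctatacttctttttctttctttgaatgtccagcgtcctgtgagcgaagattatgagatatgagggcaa
SNORA73B lies at chr1:28835070-28835274, plus strand, in an intron of SNHG3. SNORA63 lies at chr3:186505088-186505222, plus strand, in EIF4A2. SNORA22 lies at chr7:65220513-65220646, plus strand, in an intron of CCT6P1. SNORD33 lies at chr19:49993874-49993956, plus strand, in RPL13A, which the table's entry RPL13AP5 covers. SNORD97 lies at chr11:10823014-10823155, minus strand, in an intron of EIF4G2, and has neither SNORD motif in the windows searched.

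The motifs were searched on the gene's own strand only. ACA stood within the last 10 bases of 32 of 35 SNORA members (91.4%) and of 155 of all 170 SNORA entries that could be read (91.2%), against 17 of 170 (10%) stretches of the same length 200 bases upstream. TGATGA stood at the start of 5 of the 8 SNORD members that could be read, of 175 of 307 SNORD entries (57%) and of 3 flanking stretches (0.977%). CTGA stood at the end of 5 of the 8 SNORD members, of 226 of 307 entries (73.6%) and of 11 flanking stretches (3.58%). The SCARNA members, which need not end in an H/ACA box, had ACA at the end in 4 of 11 (36.4%), and all SCARNA entries in 20 of 29 (69%). The 2 SNORD141 entries have 3 genomic copies and were not read.

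Which genes became members followed their length. Summed counts reached 80 in 1 of 293 entries under 100 bases (0.341%), in 34 of 210 entries of 100 to under 150 bases (16.2%) and in 21 of 47 entries of 150 to 500 bases (44.7%). By class these were 35 of 181 SNORA (19.3%), 10 of 342 SNORD (2.92%) and 11 of 29 SCARNA entries (37.9%). SNORD33, of 83 bases, was the one member under 100 bases, while the median SNORD entry had 80 bases and the median SCARNA member 275. Of all 552 entries, 173 had no count in any library, among them all 48 SNORD115 and all 8 SNORD3 entries. The 30 SNORD116 entries held 143 counts together, and the 38 SNORD113 and SNORD114 entries held 320.

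The members held 39409 counts. The 4 highest were SNORA73B with 8497, SCARNA2 with 3302, SNORA63 with 3122 and SCARNA7 with 2495, together 44.2% of all member counts. The median member had 281. No member was at 0 in any library, and the lowest single value was 2 counts. Just inside the threshold lay SNORA100 with 80 and SNORA31B with 81 counts, and just outside lay SNORA94 with 78 and SNORA31 with 73. These levels chose the members and are given as a description.

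For 54 members the shortest gene over 500 bases that spanned the entry on the same strand was taken as the host, and these were 43 different hosts. SNHG genes, a family of noncoding small nucleolar RNA hosts, carried 12 members, ribosomal protein genes 10 and other genes 32. SCARNA2, which has its own transcription unit, and SNORD89 had no host in the table. In the GENCODE annotation 22 members lay in an intron of every transcript that spans them, 29 in introns of some and exons of other transcripts, and 5 wholly or partly in exons of every spanning transcript. SNORA86 was mostly exonic, since 22 of the 24 spanning transcripts of ITGB1, the integrin beta 1 gene, hold it whole in an exon and 2 in an intron.

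Members were read more densely than the rest of their hosts, which their choice by counts favours, so that this is a description. Over the 50 members whose host had 80 counts or more outside its short genes, counts per kilobase exceeded those of the host in 48, all but SNORA10 and SNORA31B, with a median ratio of 16.9. Among the 417 entries below the threshold with such a host the ratio exceeded 1 in 131, and its median was 0.475. The ratio was 337 for SNORD133 in LARP4, 294 for SCARNA10 in NCAPD2, 276 for SCARNA5 in ATG16L1 and 25.2 for SNORA73B in SNHG3. SCARNA10 alone held 72.1% of the counts of NCAPD2, a condensin subunit gene, and SNORA73B held 52.1% of those of SNHG3, whereas SNORA86 held 3.05% of those of ITGB1. Counts did not separate the strands, since in none of 299 pairs of genes on opposite strands did the outer gene have fewer counts than the gene inside it. A member therefore shares its reads with any gene over it. The near-identical SNORA71A, SNORA71C and SNORA71D, SNORA7A and SNORA7B, and the SNORA74 copies may share reads with each other. SNORD141A and SNORD141B are listed at the same position and so are not independent, although they count as 2 members.

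The libraries held 14897360 to 20306299 counts, of which 86.2% to 92.5% lay in ribosomal RNA genes, leaving 1513930 to 2048475. With 2 libraries a group the SEs borrow the spread of all 8 libraries. METTL3 counts were 80 and 78 in control, 77 and 47 in shControl, 16 and 19 in shMETTL3 and 73 and 56 in shMETTL14 cells, and it fell in shMETTL3 against shControl by 2.04 ± 0.31 (log2, SE; adjusted p = 1.8e-05). METTL14 counts were 60 and 55, 24 and 28, 41 and 48, and 18 and 14 in the same order, with a log2 fold change of -0.86 ± 0.34 in shMETTL14 against shControl (adjusted p = 0.076), so that its reduction did not pass the test. METTL14 was already lower in shControl than in control cells (-0.76, adjusted p = 0.047), a call lost in 10 of 16 alternatives. The summed counts of 8 fibroblast markers were 24330 to 25633 in control, 8321 to 10426 in shControl, 9937 to 11353 in shMETTL3 and 7256 to 7631 in shMETTL14 libraries, and those of epithelial, endothelial and leukocyte marker lists were at most 10 each. Of the fibroblast markers VIM did not share the lower sums, with 3632 and 3628 counts in control and 3732 and 3830 in shControl libraries. The part of this in the results was not tested, and in bulk libraries fewer cells of a type and less RNA per cell cannot be told apart.

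The members took a larger share of the counts outside ribosomal RNA genes in every senescent library than in the control libraries. Whether reads of the members, here and below, came from newly made or from mature RNA was not tested. The members held 0.142% and 0.129% of these counts in control cells, 0.271% and 0.259% in shControl, 0.464% and 0.331% in shMETTL3 and 0.305% and 0.369% in shMETTL14 cells. The 2 control libraries were the lowest and the 2 shMETTL3 libraries were among the 3 highest. The shMETTL3 and shMETTL14 ranges overlapped.

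**Figure D1:**
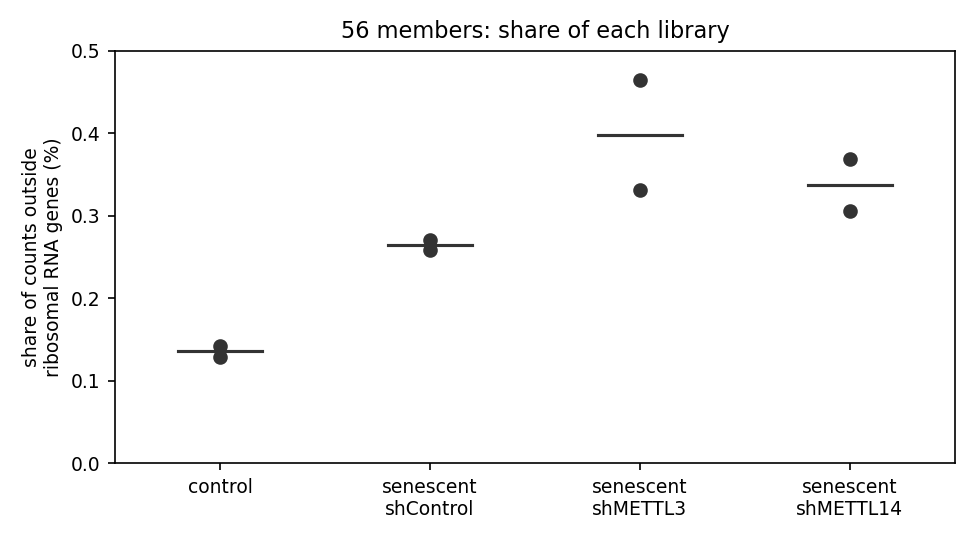
Share of the counts outside ribosomal RNA genes that fell in the 56 members (percent, vertical axis) in each of the 8 libraries, by group (horizontal axis). Points are libraries and lines their mean, with 0.142% and 0.129% in control cells below all 6 senescent libraries.

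The 2 shMETTL3 libraries disagreed for short members. In the 35 members under 150 bases the median log2 ratio of replicate 1 to replicate 2 was 0.99, with replicate 1 higher in 33, whereas in the 21 longer members it was 0.23, with replicate 1 higher in 14. Over all genes tested the median was 0.01. The normalised counts of the short members summed to 3266 in replicate 1 and 1442 in replicate 2 of shMETTL3, against 1640 and 1362 in shControl, so that replicate 2 lay between the shControl libraries. The longer members summed to 5412 and 5005 in shMETTL3, both above 3210 and 3184 in shControl. SNORA63, which guides pseudouridylation of ribosomal RNA, read 798 and 203, and SNORD33 read 51.3 and 7.60, in shMETTL3 replicates 1 and 2. In shMETTL14 cells replicate 1 was the higher in 12 of the 56 members (median log2 ratio -0.31). What separated these libraries was not tested, and values without replicate 1 of shMETTL3 are given for the totals of calls and for the named members whose own call it ended or turned. Counts by class, host and length include it.

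**Figure D2:**
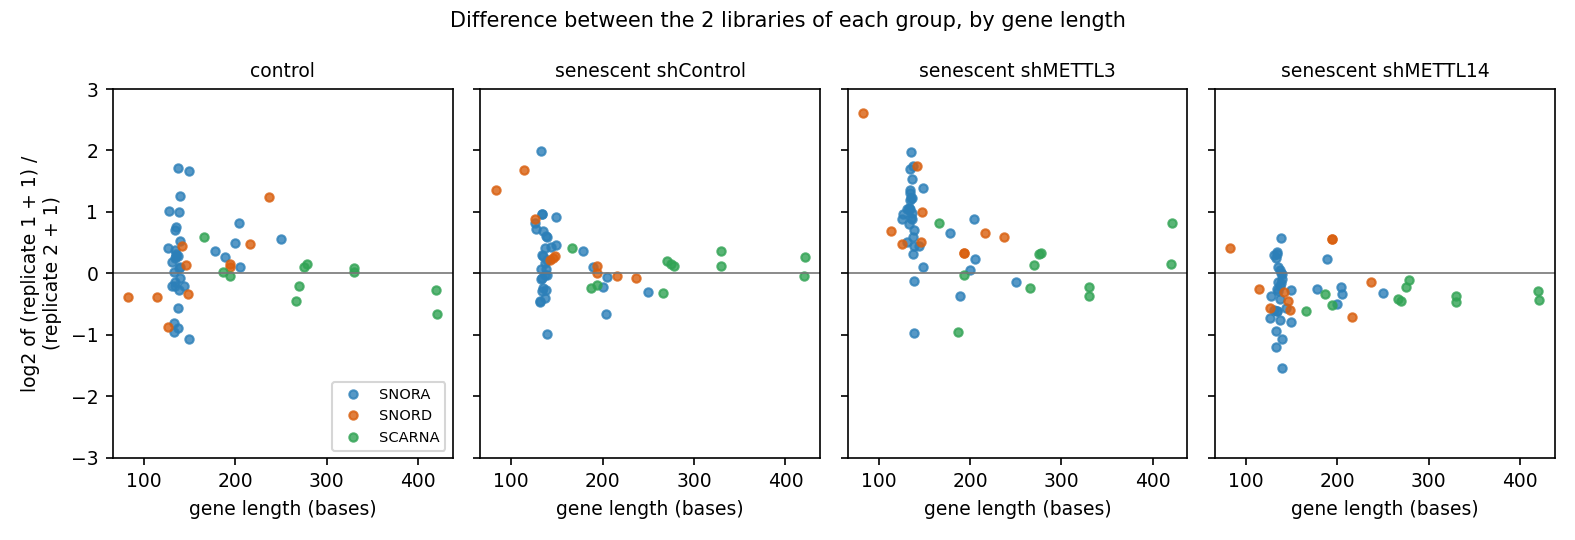
Log2 ratio of replicate 1 to replicate 2 (normalised counts plus 1, vertical axis) against gene length in bases (horizontal axis) for the 56 members, 1 panel a group. In the shMETTL3 panel 33 of the 35 members under 150 bases lie above 0, against 14 of the 21 longer ones.

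The first comparison asked how the members differed between senescent shControl and control cells. Many rose in senescence, in all 3 classes. Of the 56 members 26 were higher and 1 was lower, while 13.3% of all 12844 genes tested were higher and 13.3% lower (edgeR's quasi-likelihood test, adjusted p under 0.05). The median log2 fold change was 1.10 over the members and -0.03 over all genes tested. SNORA members counted 14 higher and 0 lower of 35, SNORD members 4 and 1 of 10, and SCARNA members 8 and 0 of 11, with medians of 1.02, 0.80 and 1.31. At an unadjusted p under 0.05 the SNORA and SCARNA members still counted 0 lower, as they did by DESeq2.

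Both shControl libraries exceeded both control libraries for 45 members and lay below both for 3, against 31.5% and 34.5% of all genes tested. SNORA73B, needed for cleavage of the ribosomal RNA precursor, had normalised counts of 449.9 and 416 in control and 858 and 898 in shControl cells. Its log2 fold change was 1.02 ± 0.15 (adjusted p = 4.8e-06). SCARNA2, which guides methylation of the U2 spliceosomal RNA, read 183 and 221 in control and 572 and 589.9 in shControl cells. It rose by 1.52 ± 0.15 (adjusted p = 5.6e-09), the groups far apart.

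Other Cajal body RNAs rose as well. SCARNA7 read 89.4 and 88.0 in control and 331 and 257 in shControl cells (log2 fold change 1.73), SCARNA6 read 10.6 and 14.8 against 39.0 and 49.0 (1.78), and SCARNA5 read 47.8 and 42.7 against 123 and 114 (1.38). SCARNA12 read 57.6 and 66.2 against 151 and 131 (1.19), and SCARNA28 read 17.7 and 18.3 against 39.0 and 44.5 (1.21). None of these 5 overlapped between the groups. SCARNA10 was among the 3 SCARNA members not called, with 97.4 and 91.4 in control and 112 and 104 in shControl cells.

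SNORA68 had the largest called fold, from 3.54 and 6.97 to 26.0 and 27.8 (2.33 ± 0.52, adjusted p = 0.0011). SNORA86, in ITGB1, read 58.5 and 54.0 in control and 242 and 209 in shControl cells (2.00 ± 0.21, adjusted p = 3.5e-08). SNORA74A, in SNHG4, read 31 and 21.8 against 95.8 and 111 (1.97 ± 0.24, adjusted p = 4.1e-07). In all 3 the control libraries were the low ones with no overlap. SNORA24, a box H/ACA RNA that earlier work tied to oncogenic RAS, was named after its values were seen. It read 15.1 and 17.4 in control and 34.3 and 47.9 in shControl cells (1.34 ± 0.38, adjusted p = 0.0098).

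Among the box C/D members, SNORD133 rose from 74.4 and 53.1 to 195 and 201 (1.64), SNORD10 from 52.2 and 66.2 to 179.7 and 147 (1.46), SNORD15B from 46.0 and 41.8 to 88.7 and 74.6 (0.89) and SNORD22, needed for small-subunit ribosomal RNA, from 6.20 and 12.2 to 29.6 and 15.6 (1.27). SNORD141A, in EEF1A1, was the 1 member that fell, from 142 and 128 to 95.8 and 87.9 (-0.55 ± 0.20, adjusted p = 0.039). It lies wholly or partly in an exon of all 20 spanning transcripts, and has 3 genomic copies. Its density was 1.74 times that of its host, so that its counts and those of the exon cannot be told apart. By host, 7 of 12 members in SNHG genes, 3 of 10 in ribosomal protein genes and 15 of 32 in other genes were higher.

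The counts changed with some choices. For other tools, scalings and left-out libraries, here and below, no share of all genes called is given. SNORA24 lost its call without control replicate 1 (1.24) or shControl replicate 2 (1.08), SNORD22 without control replicate 1 (0.88), shControl replicate 1 (0.76) or shMETTL14 replicate 2 (1.28), and SNORD15B without control replicate 2 (0.83) or shControl replicate 1 (0.77). Without shControl replicate 1 the higher members numbered 17, and without any one of the 4 libraries compared the 1 lower call was lost. Members chosen instead on the 4 libraries not compared, with 40 counts or more there (a choice added after the data were seen), gave 28 higher and 1 lower of 59. Of the 15 entries that fell short of the threshold and could be tested, 2 were higher and 0 lower. The 69 tested non-members of at most 500 bases, which include entries short of the threshold, had 6 higher and 21 lower (median log2 fold change -0.56). Scaling by library size alone, which moves the median of all genes to -0.53, left 18 members higher and 2 lower.

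**Figure D3:**
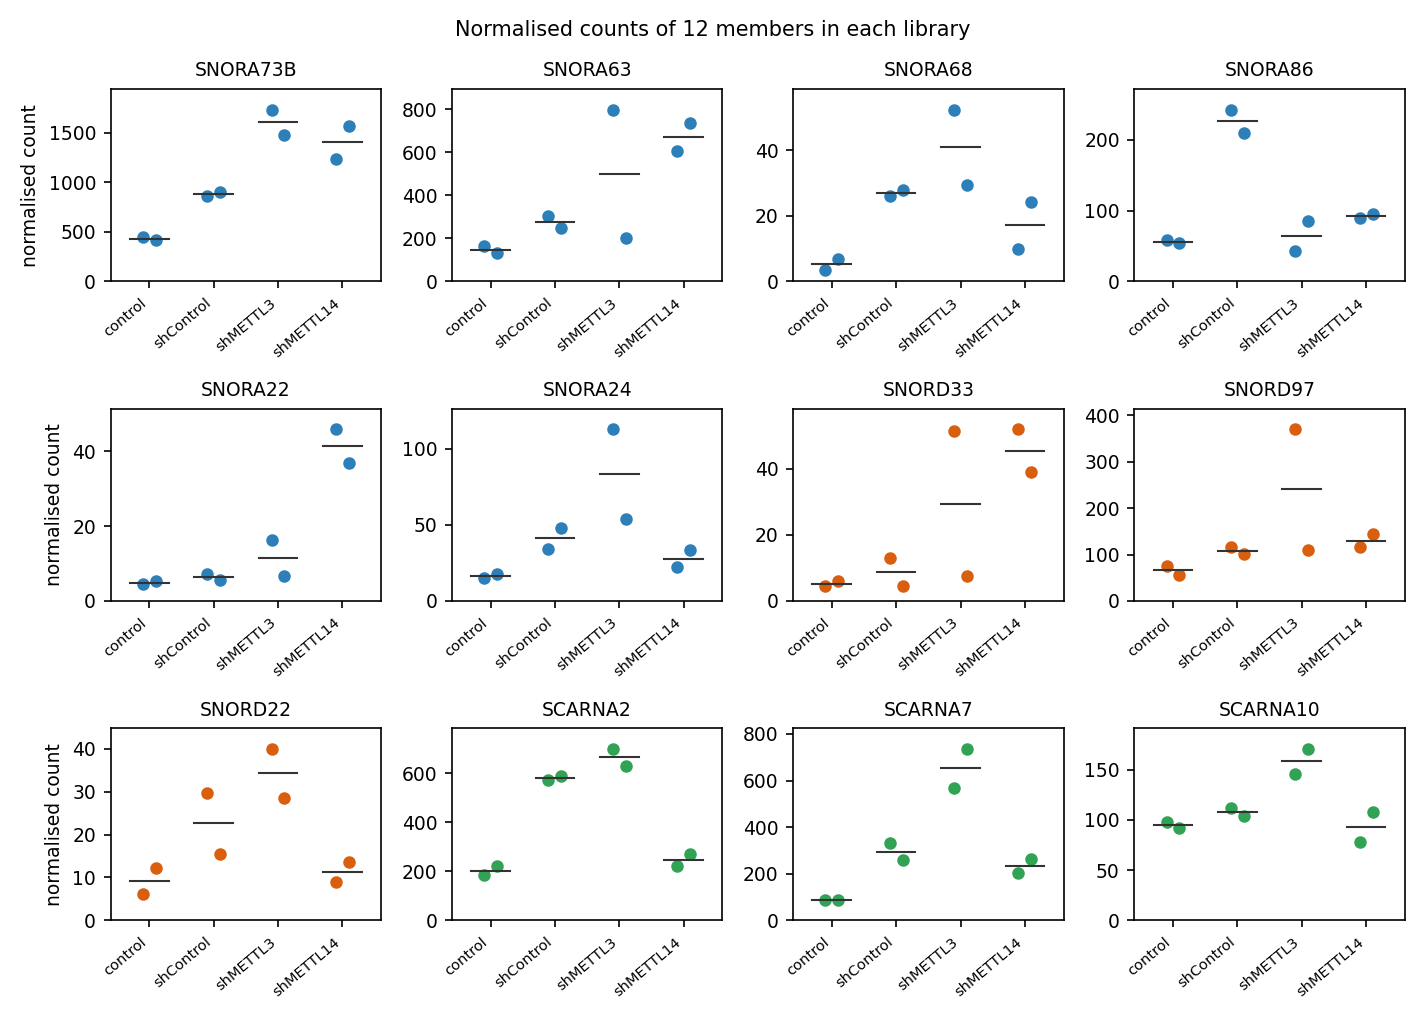
Normalised counts (vertical axis) of 12 members in the 4 groups, 1 panel a member, with points for the 2 libraries and lines for their mean. SNORA73B was lowest in control cells at 449.9 and 416, and SNORA86 was highest in shControl cells at 242 and 209.

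The second comparison asked how the members differed with METTL3 knockdown in senescent cells. Many rose, with 23 members higher and 1 lower, against 12.3% and 11.2% of all genes tested (median log2 fold change 0.86 over members, -0.03 over all). SNORA members counted 13 higher and 1 lower, SNORD members 5 and 0 and SCARNA members 5 and 0, with medians of 0.87, 0.81 and 0.56. At an unadjusted p under 0.05 the SNORD and SCARNA members counted 0 lower, and DESeq2 called 0 of them lower. Members in ribosomal protein genes rose in 5 of 10, in SNHG genes in 5 of 12 and in other genes in 13 of 32. By length these were 10 of the 35 under 150 bases and 13 of the 21 longer ones.

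Several members that rose did so in both libraries, all but SNORD15B of those given next having 150 bases or more. SNORA73B read 1734 and 1476 in shMETTL3 against 858 and 898 in shControl cells (0.87 ± 0.14, adjusted p = 5.6e-05). SCARNA7 read 568 and 737 against 331 and 257 (1.15 ± 0.16, adjusted p = 4.2e-06), and SNORA53, in the mitochondrial carrier gene SLC25A3, read 249 and 274 against 100.5 and 125 (1.22 ± 0.18, adjusted p = 1.5e-05). SNORA23, in the importin gene IPO7, read 234 and 301 against 141 and 131 (0.98), and SNORD15B, in RPS3, read 229 and 160.5 against 88.7 and 74.6 (1.25). The groups did not overlap in any of these 5. SCARNA2 read 701 and 630.5 against 572 and 589.9, a log2 fold change of 0.20 that did not pass the test.

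Short members carried the largest folds and the widest spread. SNORA71C read 20.5 and 13.3 in shMETTL3 and 4.73 and 4.45 in shControl cells (1.85 ± 0.59), and SNORA27 read 30.8 and 16.1 against 10.6 and 5.57 (1.52 ± 0.53). SNORA27 had 47 of its 82 counts in shMETTL3 and 21 in the libraries not compared, and SNORA71C had 34 of its 92 in shMETTL3 and 37 in shMETTL14, so that both are members through the groups where they are high and their folds are descriptions, although the count of 23 includes them. SNORD33, known from lipotoxic stress, read 51.3 and 7.60 against 13 and 4.45 (1.73 ± 0.61, adjusted p = 0.041), with overlapping groups. Without shMETTL3 replicate 1 the log2 fold change of SNORD33 was -0.19, and those of SNORA71C (1.495) and SNORA27 (0.98) no longer passed. These 3 calls were also lost without either shControl library, and that of SNORA27 without any 1 of the other libraries except shMETTL3 replicate 2. SNORD97, which guides methylation of the elongator methionine tRNA, read 370.4 and 110.1 against 117 and 100.2 (1.14 ± 0.31, adjusted p = 0.0081), also with overlap. SNORA63 read 798 and 203 against 306 and 250.4 (0.84 ± 0.31, adjusted p = 0.048), replicate 2 being below both shControl libraries. Without shMETTL3 replicate 1 SNORD97 had a log2 fold change of 0.01, and SNORA63 was lower than in shControl cells, at -0.47 (adjusted p = 0.043). The call of SNORD97 was also lost without shControl replicate 2, and that of SNORA63 without any 1 of the control or shControl libraries.

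SNORA86 was the 1 member that fell, from 242 and 209 to 43.1 and 85.5 (-1.80 ± 0.21, adjusted p = 5.8e-07). The shMETTL3 libraries lay on either side of the 58.5 and 54.0 of the control cells. In all, 32 members lay above and 3 below both shControl libraries, against 27.8% and 30.6% of all genes.

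The size of this set rested on single libraries and on the tool. The higher members numbered 12 without shMETTL3 replicate 1, 11 without shControl replicate 1 and 9 without shControl replicate 2, and 3 members were lower without shMETTL3 replicate 1. DESeq2 called 8 higher and 1 lower, and scaling by library size alone, which moves the median of all genes to 0.58, called 48 and 1. Neither count has a share of all genes beside it, so an excess over all genes cannot be read from them. By DESeq2 the median log2 fold change was 0.88 over members and -0.01 over all genes. Members chosen on the libraries not compared gave 22 higher and 1 lower of 50, and the 69 non-members of at most 500 bases 10 higher and 5 lower.

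The third comparison asked the same of METTL14 knockdown, against the same shControl libraries. Members moved in both directions, with 13 higher and 3 lower, against 9.15% and 12% of all genes tested (median log2 fold change 0.18 over members, 0.00 over all). All but 2 of the higher members were SNORA genes, which counted 11 higher and 1 lower of 35. SNORD members counted 2 higher and 0 lower, and SCARNA members 0 higher and 2 lower, with a SCARNA median of -0.22. At an unadjusted p under 0.05, 1 SNORD member was lower and 1 SCARNA member higher, and DESeq2 called 0 of either. In all, 19 members lay above and 11 below both shControl libraries, against 32.2% and 32.1% of all genes.

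SNORA22 had the largest fold, from 7.09 and 5.57 in shControl to 46.0 and 36.9 in shMETTL14 cells (2.69 ± 0.48). Of its 126 counts 81 came from shMETTL14 and 34 from the 4 libraries not compared, so that it is a member only through the group where it is high, and its fold is a description, although the count of 13 includes it and SNORA71C. SNORD33 rose from 13 and 4.45 to 52.0 and 39.0 (2.39 ± 0.58, adjusted p = 0.0036), and SNORA71C went from 4.73 and 4.45 to 19.0 and 19.0 (2.02 ± 0.58, a description as above). Both shMETTL14 libraries were high in each of the 3, without overlap. SNORA81 and SNORA63, both in the translation factor gene EIF4A2, rose from 60.3 and 46.7 to 133 and 159 (1.45) and from 306 and 250.4 to 608 and 738 (1.27), while SNORA4 in the same gene read 15.4 and 15.6 against 14 and 19.0 (0.09). SNORA73B read 1240 and 1571 against 858 and 898 (0.68 ± 0.14, adjusted p = 0.00098).

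SCARNA2 fell from 572 and 589.9 to 222 and 272 (-1.24 ± 0.15, adjusted p = 4.9e-07), near the 183 and 221 of control cells. SCARNA12 fell from 151 and 131 to 81.0 and 111 (-0.56 ± 0.19, adjusted p = 0.033). SNORA86 fell from 242 and 209 to 89.0 and 94.8 (-1.30 ± 0.20, adjusted p = 3.3e-05). In all 3 both shMETTL14 libraries lay below both shControl libraries.

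SNORA71C lost its call without any 1 of the 4 libraries compared, SCARNA12 without either shControl library or shMETTL14 replicate 1 (-0.37), and SNORD33 (1.79) and SNORA63 (1.13) without shControl replicate 2. The higher members numbered 8 without shControl replicate 1, 5 without shControl replicate 2 and 7 without shMETTL14 replicate 2. DESeq2 called 6 higher and 2 lower. Members chosen on the libraries not compared gave 12 higher and 3 lower of 56, and the 69 non-members of at most 500 bases 7 higher and 15 lower (median -0.30).

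The knockdowns were also compared with each other, which leaves the shControl libraries out of the means compared, though not out of the estimate of the spread. Of the 56 members 42 had a negative log2 difference of shMETTL14 from shMETTL3, with a median of -0.53 over members and 0.01 over all. Called were 3 higher and 22 lower, against 16.5% and 18.7% of all genes tested, and 31 members were not called. All 11 SCARNA members had a negative difference and 7 were called lower (median -0.78), or 5 by DESeq2. SNORA members counted 2 higher and 10 lower, and SNORD members 1 and 5. In all, 5 members lay above and 25 below both shMETTL3 libraries, against 33.5% and 32.8% of all genes.

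SCARNA7 read 203 and 262 in shMETTL14 and 568 and 737 in shMETTL3 cells (-1.49 ± 0.16, adjusted p = 5.4e-08), and SCARNA2 read 222 and 272 against 701 and 630.5 (-1.43 ± 0.15, adjusted p = 2.6e-08). SCARNA28 read 24.0 and 34.8 against 70.8 and 72.2 (-1.28 ± 0.27, adjusted p = 0.00054). These SCARNA members were high in both shMETTL3 libraries and did not overlap. SNORA24 read 22.0 and 33.7 against 113 and 54.1 (-1.58 ± 0.32, adjusted p = 0.00038), SNORD22 read 8.99 and 13.7 against 40.01 and 28.5 (-1.59 ± 0.43, adjusted p = 0.0051) and SNORA23 read 118 and 100 against 234 and 301 (-1.30 ± 0.17, adjusted p = 1.3e-06). Again the groups did not overlap. SNORA84 read 8.99 and 7.37 against 32.8 and 15.2 (-1.53 ± 0.50). Of its 92 counts 48 came from shMETTL3 and 28 from the 4 libraries not compared, so that it is a member through the group where it is high and its difference is a description. It no longer passed without shMETTL3 replicate 1 (-0.87) or without either shMETTL14 library. The count of 22 includes SNORA84 and SNORA27, for which the same holds. It also includes SNORA71D and SNORA7B, with 52 of 114 and 59 of 136 counts from shMETTL3. Without those counts neither would reach the member threshold, so that their differences are descriptions too. These members had 41 and 52 counts in the 4 libraries not compared. SNORA24 was at -0.95 without shMETTL3 replicate 1 and still passed, and SNORD22 lost its call without shMETTL14 replicate 1 (-1.33).

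The 3 members higher with shMETTL14 were SNORA22, at 46.0 and 36.9 against 16.4 and 6.65 (1.85 ± 0.42, again a description, included in the count of 3), SNORA49, at 47.0 and 45.3 against 30.8 and 16.1 (0.98 ± 0.34, adjusted p = 0.024), and SNORD141A, at 125 and 84.2 against 75.9 and 59.8 (0.63 ± 0.21, adjusted p = 0.022). None of the 3 overlapped between the groups. EEF1A1, whose exons hold SNORD141A wholly or partly, itself had a log2 fold change of 0.83 outside nested genes. SNORD141A lost its call without shMETTL14 replicate 1 (0.30) or shMETTL3 replicate 2 (0.48), and SNORA49 without either shMETTL14 library or shMETTL3 replicate 2 (0.60). Without shMETTL3 replicate 1 the counts became 11 higher and 12 lower, and without shMETTL14 replicate 1 they became 1 higher and 7 lower. DESeq2 called 1 higher and 10 lower. Members chosen on the libraries not compared gave 2 higher and 20 lower of 48.

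Of the 56 members 11 passed the test in none of the 4 comparisons. They were SNORD141B, SNORA17B, SNORA8, SCARNA1, SNORA2C, SNORA7A, SNORA4, SNORA10, SNORD89, SNORA31B and SNORA100, with totals of 80 to 652 counts. SCARNA1, in PPP1R8, had log2 fold changes of 1.31, 0.95 and 0.75 in the first 3 comparisons that did not pass, and SNORA100, in HNRNPU, had one of -0.70 in the first.

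Each member was then set beside its own host, counted outside all short genes nested in it. In senescence 11 of the 23 higher members with a tested host had a host that also rose, and 12 had a host that was not called. A host of several members counts once for each of them here and in the next sentence. With METTL3 knockdown the hosts of the 23 higher members were higher in 2, lower in 1 and not called in 20, and with METTL14 knockdown those of the 13 higher members were higher in 4, lower in 1 and not called in 8. Over the 41 hosts tested, 7 were higher and 4 lower in senescence, 2 and 8 with METTL3 knockdown, 8 and 3 with METTL14 knockdown, and 12 and 2 in shMETTL14 against shMETTL3 cells. Of all genes 13.3% were higher and 13.3% lower in senescence, 12.3% and 11.2% with METTL3 knockdown, 9.15% and 12% with METTL14 knockdown, and 16.5% and 18.7% between the knockdowns, and the host counts in senescence lay near or below those shares.

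SNORA73B moved beside SNHG3, whose counts outside the member had log2 fold changes of 1.04, 0.67 and 0.25 in the first 3 comparisons against 1.02, 0.87 and 0.68 for the member. The differences between member and host were -0.02 ± 0.20, 0.20 ± 0.20 and 0.43 ± 0.20. SNORA86 took the sign of ITGB1 each time, with 1.74, -0.82 and -0.62 in the host and 2.00, -1.80 and -1.30 in the member. NCAPD2 fell by 1.05 ± 0.26 in senescence, while SCARNA10 itself had a log2 fold change of 0.19 ± 0.19 that did not pass. With METTL14 knockdown SNHG1 rose by 1.33 ± 0.26 (adjusted p = 0.00042) and SNORD22 had a log2 fold change of -0.98 that did not pass. The difference between SNORD22 and SNHG1, -2.38 ± 0.62 in the wider of the fits described next, did not pass either (adjusted p = 0.074).

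The member counts were also tested as ratios to their own hosts, which no library scaling can change. The test covered 53 short nested genes, of which 50 were members, so its adjustment is close to one over the members alone and no p from it is given. It called 6 members higher and 0 lower than their hosts in senescence (11.3% and 0% of the genes in the test), 11 higher and 1 lower with METTL3 knockdown (20.8% and 1.89%) and 1 higher and 0 lower with METTL14 knockdown (1.89% and 0%). The median log2 difference from the host was 0.93, 0.97 and 0.15. The 4 members SNORA57, SCARNA13, SCARNA16 and SCARNA17 had hosts with under 80 counts outside nested genes and were not tested. The 6 calls in senescence were all lost with the replicate number as a block, and the 11 with METTL3 knockdown with only the groups compared in the fit. Single libraries decided calls too: in senescence 0 were higher without any one of the 4 libraries compared or without shMETTL14 replicate 2, and 17 and 15 without shMETTL3 replicates 1 and 2. With METTL3 knockdown 1 and 0 were higher without shControl replicates 1 and 2, 4 and 22 without shMETTL3 replicates 1 and 2, and 3 without either shMETTL14 library. With METTL14 knockdown 0 were higher without shControl replicate 1, 5 without either shMETTL3 library, and 5 with only the groups compared in the fit, which also called 1 lower.

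A wider fit, added after the data were seen, took in 284 nested genes of any length. It called 7 members higher and 0 lower than their hosts in senescence, against 6.69% and 2.46% of all genes in it, 3 and 0 with METTL3 knockdown, against 1.41% and 0.704%, and 1 and 0 with METTL14 knockdown, against 3.17% and 0.704%. The unadjusted p was under 0.05 for 17 higher and 0 lower, 26 and 1, and 8 and 5 members, and limma called 8 and 0, 3 and 0, and 1 and 0. The median differences of the other 234 nested genes were 0.05, 0.04 and -0.04. In senescence no member passed without shControl replicate 1 or either control library, 2 passed without shControl replicate 2 and 14 without either shMETTL3 library. With METTL3 knockdown 0 passed without either shControl library, 5 and 17 higher (with 0 and 1 lower) without shMETTL3 replicates 1 and 2, and 2 without either shMETTL14 library. With METTL14 knockdown 0 passed without shControl replicate 2, 3 without either control library, and 4 higher with 1 and 2 lower without shMETTL3 replicates 1 and 2.

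In senescence the members called against their hosts in the wider fit included SCARNA7 (1.14), SCARNA12 (1.09), SCARNA5 (1.10), SCARNA28 (1.43), SNORD15B (1.09) and SNORD133 (1.44), and the 7 testable SCARNA members ran from 1.09 to 1.46. SCARNA10, called in the narrower test, differed from NCAPD2 by 1.25 ± 0.36 in the wider fit (adjusted p = 0.067). With METTL3 knockdown SNORA53 (1.47), SNORA23 (1.118) and SNORD15B (1.37) were called, each with an adjusted p of 0.024. The largest called differences of the narrower test did not pass in the wider fit. They were SNORA10 (1.94 ± 0.70), SNORA31B (1.60 ± 0.44), SNORD97 (1.56 ± 0.51, adjusted p = 0.11) and SNORA86 (-1.002 ± 0.27, adjusted p = 0.091). SNORA10 had 36 of its 84 counts in shMETTL3 and SNORA31B 33 of its 81, with 36 and 34 in the libraries not compared, so that both are members through the group where they are high and are described only, although the count of 11 includes them. Both were read less densely than their hosts. In the narrower test SNORD97 differed from its host by 0.37 without shMETTL3 replicate 1. With the replicate number as a block, 0 members passed in the wider fit with METTL3 knockdown.

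SNORA22 was the 1 member called against its host with METTL14 knockdown, by 2.996 in the wider fit, and since its shMETTL14 counts made it a member this too is a description. Its host CCT6P1, a pseudogene of a chaperonin subunit, had 132 counts outside nested genes in all 8 libraries, with 17 and 13 in shControl and 14 and 13 in shMETTL14 cells. The host had a log2 fold change of -0.31 ± 0.48 that did not pass the test, with overlapping groups.

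**Figure D4:**
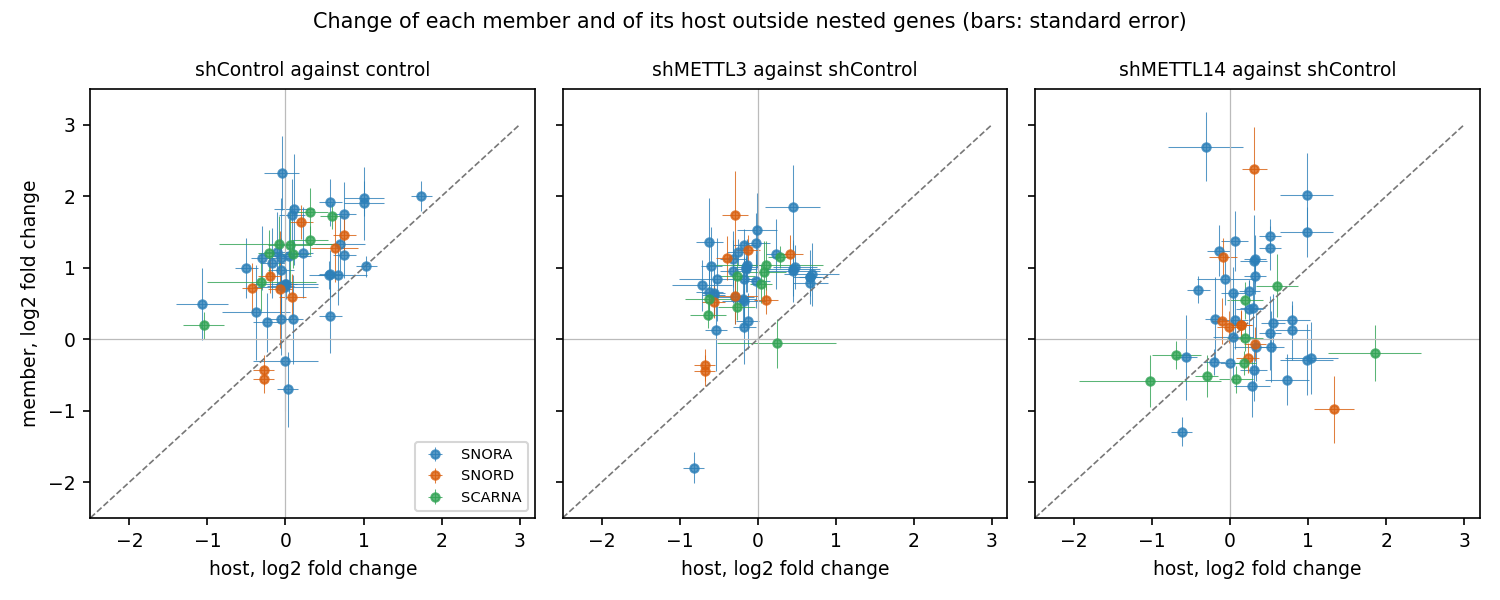
Log2 fold change of each member (vertical axis) against that of its host outside nested genes (horizontal axis) in 3 comparisons, with SE bars, colours for the 3 classes and a dashed line of equal change. SNORA22, at 2.69, is the highest point of the shMETTL14 panel, and SNORA86, at -1.80, the lowest of the shMETTL3 panel.

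Members of a single host did not always move alike. EIF4A1 carries SNORD10, SNORA48 and SNORA67, which with METTL14 knockdown had log2 fold changes of -0.07, 0.89 and 1.116, the latter pair called, though each call was lost without any 1 of the 4 libraries compared. SNORD10 read 179.7 and 147 in shControl and 124 and 187 in shMETTL14 cells, SNORA48 read 70.9 and 83.5 against 136 and 151, and SNORA67 read 46.1 and 34.5 against 81.0 and 93.7. SNHG17 carries SNORA71A, SNORA71C and SNORA71D, of which SNORA71A read 41.4 and 26.7 against 91.0 and 101 and SNORA71D 11.8 and 14.5 against 13 and 8.42. The differences between members of a host were not tested.

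Of the protein partners, 22 genes of the box C/D and H/ACA particles and their assembly were tested. Of all genes 13.3% were higher and 13.3% lower in senescence, 12.3% and 11.2% with METTL3 knockdown, 9.15% and 12% with METTL14 knockdown, and 16.5% and 18.7% between the knockdowns, so that the count in senescence lay near that share. In senescence 3 were higher and 0 lower, namely NOP10 (0.98), an H/ACA core protein, RPAP3 (0.80), of the assembly complex, and NOLC1 (0.94), a nucleolar and Cajal body chaperone. With METTL3 knockdown 1 was higher, TGS1 (0.59), which caps small RNAs, and 5 were lower, FBL (-0.87), RUVBL2 (-1.15), RPAP3 (-0.64), NOLC1 (-0.76) and PHAX (-0.69). With METTL14 knockdown SNU13 (0.62) and NAF1 (0.91) were higher and RPAP3 (-0.67) was lower. The medians over the list were 0.12, -0.33 and 0.33.

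FBL, the methyltransferase of the box C/D particle, had counts of 41 and 44 in shControl, 23 and 31 in shMETTL3 and 66 and 59 in shMETTL14 cells. DKC1, the pseudouridine synthase of the H/ACA particle, had 38 and 58, 53 and 60, and 67 and 72, and passed the test in none of the 4 comparisons. In shMETTL14 against shMETTL3 cells 8 of the 22 genes were higher and 0 lower, among them FBL (1.27), RUVBL2 (1.53), NOLC1 (1.03) and COIL (1.20), the Cajal body scaffold. In that comparison the members had 3 calls higher and 22 lower.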

How the data were processed

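The 8 fastGRO-seq libraries, 2 in each of 4 groups, came as 1 table of raw counts per gene, which the authors made from reads aligned to hg19 by counting whole gene bodies with HOMER and deposited unnormalised. The submitters' processing notes name STAR and deepTools 3.3. Drosophila spike-in nuclei were added by the authors, and their reads were not used here, so every fold change is relative to the other genes. The library kit marks strand, but the counts did not separate strands. Reads of members with near-identical copies may have been split or lost in alignment.

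Groups came from the sample labels. The members and the gene lists were chosen with earlier results of these data known. Counts were filtered with filterByExpr (minimum count 10), scaled by TMM (trimmed mean of M values) and tested in R 4.3.3 with edgeR 4.0.16's quasi-likelihood test, all 8 libraries in 1 fit, with Benjamini-Hochberg adjustment over the 12844 genes that passed and calls at adjusted p under 0.05. All 56 members passed the filter. Normalised counts are counts scaled to the mean effective library size, and errors are SEs of the log2 fold change. Ratios to hosts were tested with the log of the host count outside nested genes of at most 500 bases, plus 0.5, as an offset, where both had 80 counts or more. Positions are those of the table, and annotation is GENCODE v44lift37. The tests were checked on simulated data. DESeq2 1.42.0, limma 3.58.1, other scalings, filters and member choices, a replicate block and fits without each library were run as alternatives. Tables and plots used Python 3.11.15, pandas 2.3.3 and matplotlib 3.10.9.

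Genes named by rule were METTL3, METTL14, members with a known role in cutting the ribosomal RNA precursor, SNORA86 (which a list of the study holds), the 3 largest called rises and falls in each comparison and against hosts, and members beside the count threshold. Other members were named as examples after their values were seen. The host, position, sequence and host comparison of 1 member are not reported here.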

Additional observations from a re-analysis of the deposited data

How the results depend on the processing

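Leaving out each library in turn gave 17 to 34 members higher and 0 to 1 lower in senescence, 9 to 30 and 1 to 3 with METTL3 knockdown, 5 to 14 and 2 to 3 with METTL14 knockdown, and 1 to 11 and 7 to 23 between the knockdowns. Against hosts it gave 0 to 17, 0 to 22 and 0 to 5 higher and 0 to 0, 0 to 1 and 0 to 1 lower in the first 3 comparisons. DESeq2 called 8 members higher with METTL3 knockdown, 6 with METTL14 knockdown, 1 higher and 10 lower between the knockdowns, and 0 lower in senescence, where 1 was lower by edgeR at an unadjusted p under 0.05. Scaling by library size alone called 2 lower in senescence, 48 higher with METTL3 knockdown and 1 higher between the knockdowns. A filter of 10 counts in every library left 7 higher with METTL14 knockdown, and members with 200 counts or more gave 1 higher between the knockdowns. Against hosts, limma called 10 higher in senescence. With the groups compared alone in the fit, 0 were higher and 0 lower with METTL3 knockdown and 5 higher and 1 lower with METTL14 knockdown. Nested genes of any length, a fit added after the data were seen, gave 3 higher and 0 lower with METTL3 knockdown. With METTL14 knockdown a host minimum of 400 counts and the minimum sum of 200 each left 0 higher. Why these counts moved was not tested, and the shares of all genes called under these alternatives are not given.

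The labels give groups the same replicate numbers, but same-numbered libraries did not deviate together (correlations of -0.04 to 0.09 over all genes, and of -0.21 to 0.30 over the members, the highest between shControl and shMETTL3), so the libraries were taken to share only a number. With the replicate number as a block the members called higher and lower were 25 and 1 in senescence, 20 and 1 with METTL3 knockdown, 13 and 3 with METTL14 knockdown and 4 and 20 between the knockdowns, and 0 were higher than their hosts in senescence. In the wider host fit the block gave 6, 0 and 1 higher in the first 3 comparisons.

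METTL3 in senescence had a log2 fold change of 0.04 that did not pass, which turned to -0.46 with library size alone and -0.013 with upper-quartile scaling and ran from -0.40 to 0.40 without each library. SNORD33 with METTL3 knockdown ran from -0.19, without shMETTL3 replicate 1, to 2.66. Of the values of single named genes under the alternatives, 440 kept their direction and their side of the threshold, 108 lost their call, 2 gained one and 4 reversed direction. With 2 libraries a group and members of 80 counts or more, depth limits the members of few counts most.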
